A study of Mus musculus with 2 samples.

Results

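The cells described here are the fetal mouse lung cells of time point E18.5 in which a transcript of Cdh16 itself was read, 311 of the 12027 E18.5 cells that passed the cell filter and of 26113 such cells in both libraries of the study. A cell was kept with at least 500 detected genes, at least 1000 unique molecular identifiers (UMIs, each standing for 1 captured transcript) and at most 20% mitochondrial UMIs, and it was a member with at least 1 Cdh16 UMI. The members were thus chosen by the Cdh16 counts themselves, which are given as a description with no test. All other genes were compared between the members and cells of the same library without a Cdh16 UMI.

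The study traced cells in mice that carry a tamoxifen-inducible recombinase driven by the Cdh16 gene (CreERT2) and a tdTomato reporter that recombination switches on. Tamoxifen reached the pregnant females from embryonic day 12.5, either injected at 0.1 mg per kg body weight or fed at 0.4 g per kg food, and the labels do not say which route either library had. Lungs were digested, red cells were sorted within the population stained for CD326 (the protein of Epcam), and 1 droplet library each was made for E18.5 and postnatal day 10 (P10). The E18.5 library, labelled as alveolar epithelial cells of genotype Cdh16CreERT2;tdTomatoflox/flox, is the one described, and P10 carries the same genotype and tissue labels. The design text writes the genotype as Cdh16CreERT2/wt;R26-tdTomatoflox/wt. Neither how many animals went into a library nor a group without recombinase is given, and no reporter transcript is listed, so the red label of a single cell could not be checked. Every kept cell had been through the same sort, and cells without a Cdh16 UMI are not unlabelled cells.

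Cdh16 encodes kidney-specific cadherin (Ksp-cadherin), a calcium-dependent adhesion protein best known from the lateral membrane of kidney tubule cells and also made in the thyroid. It belongs to the small cadherin family with a short cytoplasmic tail, as does Cdh17, the liver-intestine cadherin. In the fetal lung, alveolar epithelium holds flat type 1 (AT1) cells, which form the gas exchange surface, and type 2 (AT2) cells, which make surfactant. The gene lies on chromosome 8 of mm10, positions 104601911 to 104624396, minus strand, and 0 other genes of the GENCODE annotation overlap it.

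With 1 library per time point, no difference here has a replicate check and no p-value is given. Intervals are exact 95% intervals (Clopper-Pearson for shares, Poisson for summed counts, conditional binomial for ratios) and cover counting error only. The library held 137837590 UMIs in 12739 barcodes, and the kept cells had a median of 8959 UMIs. The E18.5 and P10 libraries shared 59 barcodes, 0 of them a member's.

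Cdh16 transcripts were scarce. Kept E18.5 cells held 351 Cdh16 UMIs, a level of 2.56 CPM (2.30 to 2.84), where CPM is the UMIs of a gene scaled to 1000000 UMIs in the summed cells. At least 1 Cdh16 UMI was found in 2.59% of cells (2.31 to 2.89). Of the 311 members, 277 (89.1%) had exactly 1 UMI, 29 had 2, 4 had 3 and 1 had 4, while the 11716 other kept cells had none. At the library level a cell of median depth would hold 0.0229 Cdh16 UMIs. A cell without a Cdh16 UMI can therefore express the gene, and the rule picks the cells where it was caught. Among the 712 barcodes that failed the filter, 2 carried a Cdh16 UMI.

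Depth was the first property that set members apart. They had a median of 18109 UMIs (range 1125 to 72632) and 4433 genes, against 8795.5 UMIs in the kept cells without a Cdh16 UMI. With the cells split by depth into 5 bins of equal number, 0.333% had a Cdh16 UMI in the shallowest bin, and in the following bins 1.25%, 1.41%, 3.08% and 6.86%. Spreading the 351 UMIs over the cells in proportion to depth would give 0.697%, 1.41%, 2.26%, 3.41% and 6.46%. These values lay within the interval of the measured share in 3 of the bins and above it in the shallowest (0.144 to 0.654%) and the middle one (0.981 to 1.97%). After every cell was thinned to 3000 UMIs, 75 of 10695 cells (0.701%) kept a Cdh16 UMI.

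**Figure D1:**
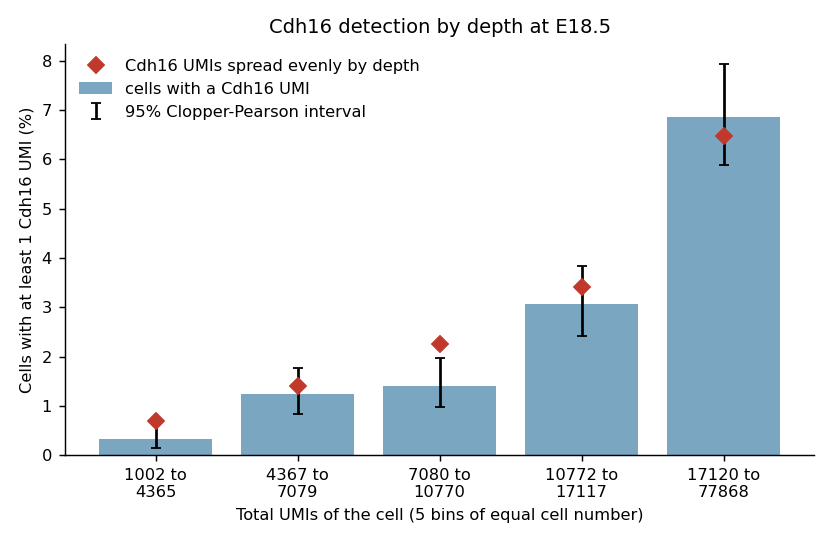
Percentage of kept E18.5 cells with at least 1 Cdh16 UMI (bars, 95% Clopper-Pearson interval) in 5 bins of total UMIs per cell, with the percentage that an even spread of all Cdh16 UMIs by depth would give (diamonds). Bars climb from 0.333% to 6.86% and the diamonds from 0.697% to 6.46%; the diamonds of the shallowest and the middle bin lie above the bars' intervals.

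The UMIs were nevertheless bunched in fewer cells than an even spread by depth would use. The same spread would put 2 or more UMIs in 8.05 cells, and 34 cells had them. Spreading the UMIs separately within each cluster of cells would give 9.21 cells, and within the 4 kinds of cells set out next 11.8 cells. The 5 members with 3 or more UMIs were 3 mixed AT1 and AT2 cells of 25211 to 38794 UMIs, 1 AT2-like cell of 31121 UMIs and 1 AT1-like cell of only 5394 UMIs.

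Cdh16 differed between cells with Y-linked and cells with Xist transcripts. Xist is made from the inactive X chromosome of female cells, and a small set of Y-linked genes (among them Ddx3y, Eif2s3y and Uty) from male cells, so that their UMIs part the cells of a pooled library by sex. Of the E18.5 cells with Y-linked and no Xist UMIs, 155 of 3072 (5.05%) had a Cdh16 UMI, a level of 4.65 CPM (3.98 to 5.39). Of those with Xist and no Y-linked UMIs, 25 of 4236 (0.590%) had one, a level of 0.562 CPM (0.367 to 0.823). The ratio was 8.27 (5.46 to 13.0), with median depths of 9930 and 9301 UMIs. Requiring more UMIs of either sort before a cell was placed gave 8.41 (5.23 to 14.3). Cells with both sorts of UMI, which were deep (median 17790.5 UMIs), stood at 3.13 CPM, and cells with neither at 2.25 CPM.

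At P10 the order was the opposite. Cells with Xist and no Y-linked UMIs stood at 0.908 CPM, 66 of 6856 cells with a UMI, and cells with Y-linked and no Xist UMIs at 0.154 CPM, 4 of 2485 cells. Xist over Y-linked cells was 5.90 (interval 2.20 to 22.2). Each order was measured in 1 library, and in neither can sex and single animals be told apart. Among 15628 genes with at least 50 UMIs over both kinds of E18.5 cells, Xist, Tsix and the Y-linked genes left out, the median Y-linked over Xist ratio was 0.988 and the 1st and 99th percentiles were 0.569 and 2.07. Cdh16 ranked 5 from the top of that order; this floor was set after its counts were seen. The 6 genes within 200 kb of Cdh16 with at least 100 UMIs had ratios of 0.837 to 1.77 at E18.5, the highest being Rrad, and of 0.777 to 1.40 at P10.

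**Figure D2:**
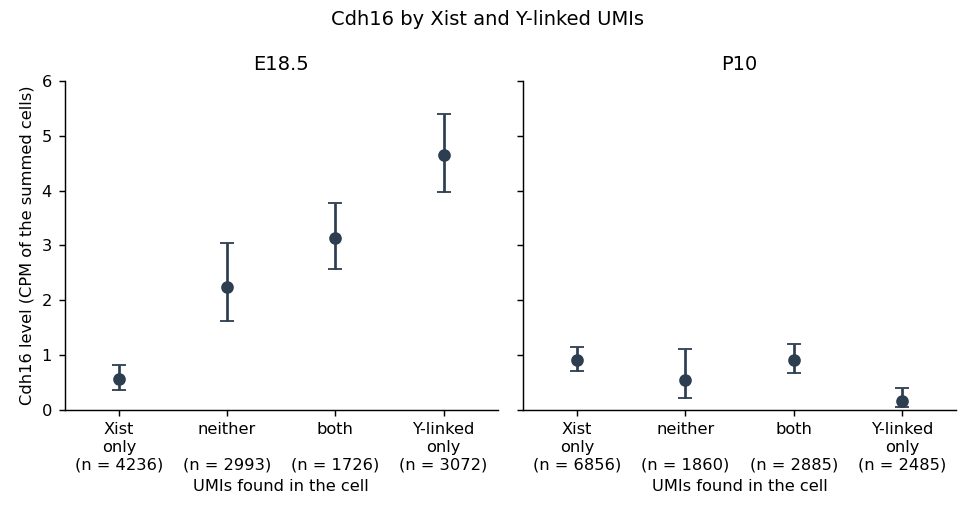
Cdh16 level in CPM of the summed cells (points, 95% Poisson interval) for cells with Xist UMIs only, with neither, with both and with Y-linked UMIs only, at E18.5 (left) and P10 (right). At E18.5 the level runs from 0.562 CPM in Xist cells to 4.65 CPM in Y-linked cells, and at P10 the Xist cells, at 0.908 CPM, lie above the Y-linked cells at 0.154 CPM.

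The members were accordingly mostly cells with Y-linked UMIs. Of the 311, 49.8% had Y-linked and no Xist UMIs and 8.04% the reverse, against 26.9% and 35.2% of depth-matched cells. A further 29.6% had both sorts of UMI and 12.5% neither, against 26.8% and 11.1% of depth-matched cells. The 34 members with 2 or more Cdh16 UMIs held 1 cell with Xist UMIs only, 16 with Y-linked UMIs only and 15 with both. Matched cells of the same kind were used as a further comparison for the genes and lists where this is stated below.

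Clusters, made without Cdh16, gave 4 alveolar classes: AT1-like, AT2-like, a class carrying the markers of both (mixed AT1 and AT2) and a transitional-like class led by Ccn2, a matricellular protein. The transitional-like cluster had 13 of 14 AT1 markers raised and 0 of 12 AT2 markers, so its name does not stand for a mix of both. Members fell into the 4 classes as 97 mixed, 74 AT2-like, 36 transitional-like and 21 AT1-like cells, together 73.3% of members against 63.0% of depth-matched cells. For the alveolar classes together the intervals were 68.0 to 78.1% and 61.3 to 64.7%. The transitional-like share was 11.6% (8.24 to 15.7) of members and 7.52% (6.62 to 8.51) of depth-matched cells, and the AT2-like share 23.8% (19.2 to 28.9) and 19.6% (18.2 to 21.0), with intervals that meet in both cases. The mixed share, 31.2%, and the AT1-like share, 6.75%, differed from the 28.7% and 7.2% of matched cells by less than their intervals. Non-epithelial-like cells made up 9.65% (6.60 to 13.5) of members and 15.2% (13.9 to 16.5) of matched cells. Some of their clusters carried alveolar markers. Those without such markers made up 3.86% (2.01 to 6.64) and 6.30% (5.47 to 7.21), with intervals that overlap. Ciliated-like cells were 2.89% (1.33 to 5.42) and 5.11% (4.36 to 5.95), club-like cells 0.643% (0.078 to 2.30) and 2.19% (1.70 to 2.76), and contractile-like cells 0.322% (0.00814 to 1.78) and 1.90% (1.45 to 2.44). These 3 rest on 9, 2 and 1 members, and each pair of intervals overlaps. The mixed class was deep (median 16282 UMIs), doublets were not removed, and their part in it was not tested. At a Leiden resolution of 2 and under a stricter cell filter no cluster took that name, and the AT2-like share of members was then 34.4% and 33.3% and the unnamed share 34.1% and 39.5%. The deepest unnamed cluster, led by the myeloid genes Ear2, Tlr2 and Mpeg1 but carrying alveolar markers, held 27 members (8.68%, against 8.65% of matched cells).

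As a level, Cdh16 stood at 3.88 CPM (2.80 to 5.22) in transitional-like, 3.0 CPM (2.47 to 3.62) in mixed, 2.95 CPM (2.35 to 3.66) in AT2-like and 1.96 CPM (1.24 to 2.95) in AT1-like cells. Neighbours in that order overlap in their intervals. The order also rests on where transitional-like and AT1-like cells were parted, which changed with the Leiden resolution. Each cluster of these 2 classes had 13 of 14 AT1 markers raised, so neither value is the level of AT1-marked cells as a whole. In the non-epithelial-like clusters without alveolar markers, used here as the background level, 12 of 990 cells (1.21%, median 5543.5 UMIs) had a UMI and the level was 1.36 CPM (0.701 to 2.37). That these sorted cells lack the gene was not tested. The intervals of transitional-like and mixed cells lie above that background, that of AT2-like cells meets its upper end, and that of AT1-like cells overlaps it.

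The share of cells with Y-linked UMIs also differed between classes. Cells with Y-linked UMIs made up 42.0% of all cells that had Xist or Y-linked UMIs but not both, and this share was 23.2% in AT1-like cells (17.6% in their main cluster and 39.3% in the other), 56.3% in the transitional-like cluster and 37.3% in AT2-like cells. It was also high in fibroblast-like (57.7%), contractile-like (57.7%) and myeloid-like cells (58.6%), where Cdh16 stood lower, at 1.55, 0.426 and 1.69 CPM. Among cells with Y-linked UMIs only, Cdh16 stood at 9.25 CPM (4.93 to 15.8) in AT1-like, 7.31 CPM (4.97 to 10.4) in transitional-like, 5.64 CPM (4.08 to 7.60) in AT2-like and 4.64 CPM (3.47 to 6.07) in mixed cells. The intervals of the 4 classes overlap. The AT1-like value joins 2 clusters: a shallow one led by Lars2 and Camk1d, at 16.1 CPM (6.47 to 33.2, 7 UMIs, median 2444 UMIs a cell), and the main one, at 6.18 CPM (2.27 to 13.5), where 1 cell held 3 of the 6 UMIs. A Cdh16 UMI was found in 124 of 1967 alveolar cells of this kind (6.30%, median 10354 UMIs), at 5.67 CPM (4.77 to 6.69). In the non-epithelial-like clusters without alveolar markers it was found in 3 of 343 cells with Y-linked UMIs only (0.875%, median 5703 UMIs), at 1.12 CPM (0.230 to 3.26), below the alveolar interval.

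In cells with Xist UMIs only, the alveolar cells together did not stand above the background. Alveolar cells of this kind had a Cdh16 UMI in 17 of 3133 (0.543%, median 9266 UMIs), at 0.508 CPM (0.296 to 0.814), and non-epithelial-like cells in 3 of 248 (1.21%, median 5152 UMIs), at 1.55 CPM (0.321 to 4.54). The intervals overlap, and the second rests on 3 cells. A Cdh16 level above the background was thus not detectable at this depth in alveolar cells with Xist UMIs only. In cells with Y-linked UMIs only, the intervals of the 4 alveolar classes lie above the 3.26 CPM that bounds the non-epithelial-like cells of the same kind, while that of the main AT1-like cluster alone reaches under it.

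**Figure D3:**
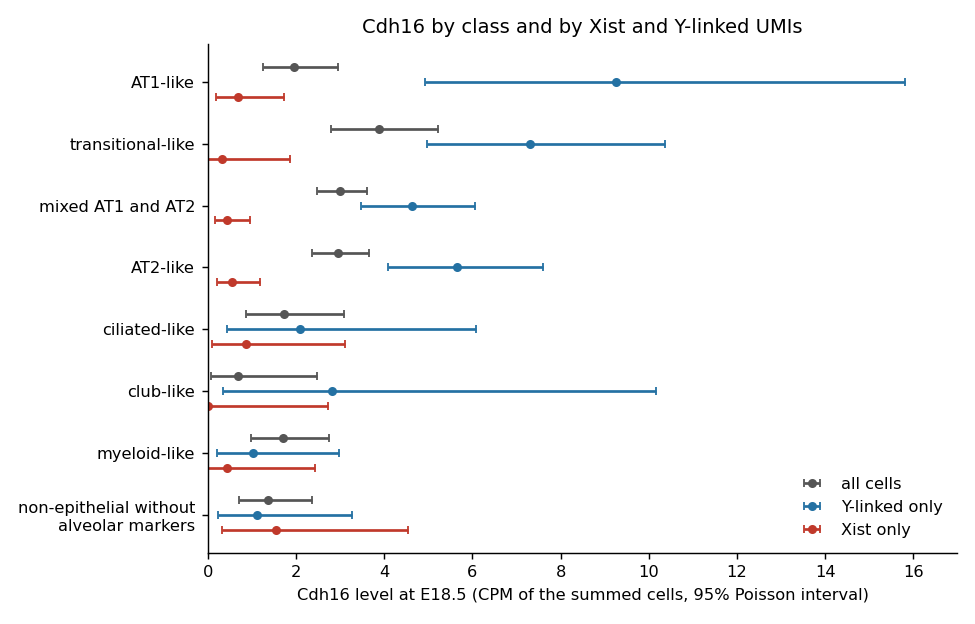
Cdh16 level at E18.5 in CPM of the summed cells (points, 95% Poisson interval) in 8 classes of cells, for all cells of a class and for those with Y-linked UMIs only or Xist UMIs only. In the 4 alveolar classes the Y-linked points lie between 4.64 and 9.25 CPM and the Xist points below 0.7 CPM, while in the non-epithelial cells without alveolar markers the intervals overlap.

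Of the 3 AT2-like clusters, the one led by antioxidant genes had the highest point value over all cells. This cluster of 322 cells, led by Cbr3 (a carbonyl reductase), Sprr1a (a cornified envelope protein also induced by injury), Srxn1 and glutathione transferase genes, held 21 members (6.52% of its cells) at 4.89 CPM (3.22 to 7.12), which overlaps the 2.99 CPM (2.06 to 4.2) of the next. Within cells with Y-linked UMIs it stood at 7.81 CPM (4.46 to 12.7), which overlaps the 5.62 CPM (3.07 to 9.43) of the largest AT2-like cluster.

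The members were next compared with 10 cells each without a Cdh16 UMI of nearest total UMIs. Median depths were 18109 and 18118 UMIs, and the sums held 6276100 and 60943824 UMIs. Of 8441 genes with at least 10 CPM in either sum, 28 were at least 1.5-fold higher in members (0.332% of those measured) and 220 at least 1.5-fold lower (2.61%), and the median log2 ratio over all of them was -0.04. A gene that reached the 10 CPM in 1 sum only is past the fold more easily in that sum's direction, and this holds for 15 of the 28 and 115 of the 220. No count over such genes is read as a result. Sftpc, the surfactant protein that marks AT2 cells, stood at 68060 CPM in members and 63732 CPM in matched cells, and Ager, the receptor that marks AT1 cells, at 3054 and 3014 CPM.

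**Figure D4:**
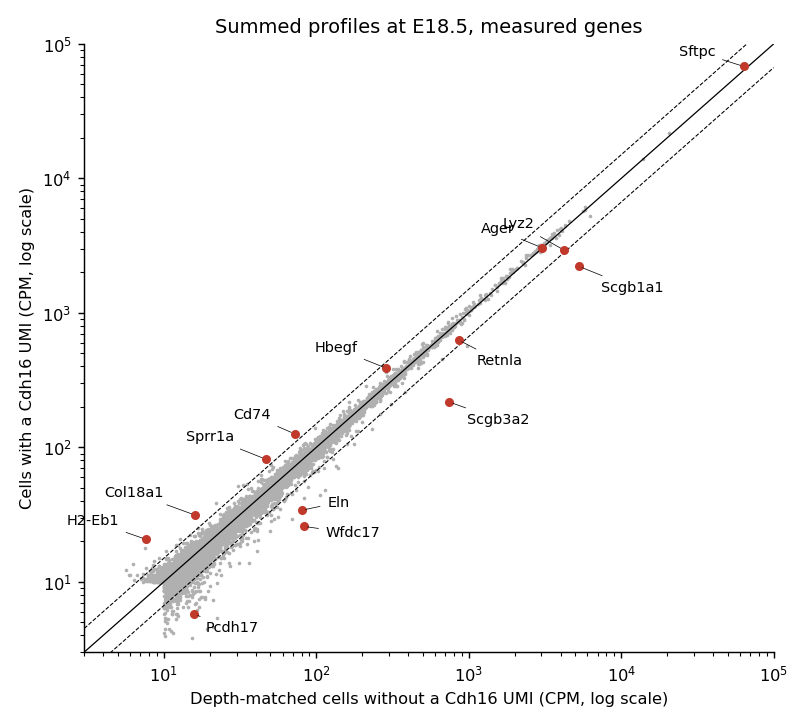
Summed E18.5 profiles of the 311 members (vertical axis, CPM, log scale) and of their depth-matched cells without a Cdh16 UMI (horizontal axis, CPM, log scale); each point is 1 measured gene, the solid line marks equal levels and the dashed lines a 1.5-fold difference. Most genes lie between the dashed lines; Scgb3a2, Scgb1a1, Eln and Wfdc17 lie below them and H2-Eb1, Cd74, Col18a1 and Sprr1a above.

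Markers of other cell types were among the genes on the lower side. Scgb3a2, a secretoglobin of club cells, stood at 217 CPM in members and 746 CPM in matched cells, a ratio of 0.29 (0.276 to 0.307). Scgb1a1, the main club cell secretory protein, stood at 2218 and 5282 CPM (0.42). Wfdc17, a protease inhibitor of macrophages, stood at 25.8 and 83.0 CPM (0.31), and Eln, the elastin of fibroblasts and smooth muscle, at 34.1 and 80.4 CPM (0.42). In 6 marker lists of other cells, those past the fold downwards were 3 of 6 measured for club, 5 of 7 for ciliated, 7 of 12 for myeloid, 4 of 7 for endothelial, 4 of 5 for fibroblast and 2 of 2 for contractile cells. Past it upwards were 0, and of all measured genes 2.61% were lower. Of these 25 lower markers, 10 reached the floor in the matched sum only. In further lists, 0 of 2 neutrophil, 0 of 1 lymphoid, 0 of 2 mesothelial, 0 of 4 erythroid and 0 of 1 basal markers were past the fold either way. Of 3 cycling markers 1 was lower, over the floor in the matched sum only, and 0 neuroendocrine markers were measured. Non-epithelial-like cells together were a smaller share of the members, as given above, but the intervals overlapped for the clusters without alveolar markers. They also overlapped for myeloid-like (2.72 to 7.83% and 6.05 to 7.86%), endothelial-like (0.711 to 4.15% and 2.19 to 3.37%) and fibroblast-like cells (0.711 to 4.15% and 2.10 to 3.26%).

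When each member was instead matched within its own class, 41 of the 220 lower genes were still past the fold. Of 8318 genes measured, 27 were higher (0.325%) and 50 lower (0.601%), with a median log2 ratio of -0.02. Past the fold downwards were then 1 of 6 club, 0 of 6 ciliated, 3 of 10 myeloid, 2 of 6 endothelial, 0 of 5 fibroblast and 0 of 2 contractile markers, 5 of these 6 through the matched sum only. In the further lists, 1 of 2 neutrophil markers was then higher, S100a9 at 1.65, and 1 member held 52.7% of its UMIs. The 1 measured neuroendocrine marker was lower, through the matched sum only. Scgb3a2 moved to a ratio of 0.57, Scgb1a1 to 0.73 and Eln to 0.72. Scgb3a2 in members rested on few cells, 1 of which held 16.8% of its UMIs. With cells matched on class and on the kind of sex-linked UMIs as well, 22 of 8316 genes were higher (0.265%) and 47 lower (0.565%). Those matched cells were somewhat shallower, with a median of 15542 UMIs.

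Lyz2, Retnla and Pon1, all among the leading genes of the largest AT2-like cluster, were lower in members than in cells of the same class. Lyz2, the lysozyme that AT2 cells and macrophages make, stood at 2939 CPM in members and 4357 CPM in class-matched cells, a ratio of 0.67 (0.664 to 0.685). In AT2-like members the ratio was 0.68 and in mixed members 0.52, against 0.85 in transitional-like and 0.86 in AT1-like members. Retnla, a resistin-like secreted protein, stood at 628 and 961 CPM (0.65, 0.632 to 0.675), and Pon1, a paraoxonase, at 68.4 and 104 CPM (0.65, 0.592 to 0.722). These 3 genes were also lower in Y-linked than in Xist cells without a Cdh16 UMI, with ratios of 0.79, 0.72 and 0.79. With the kind of sex-linked UMIs matched too, the ratios of members over matched cells were 0.69, 0.68 and 0.67. No single member held more than 5.61% of the UMIs of any of the 3. Other AT2 genes stood close to equal in class-matched cells, among them Sftpc at 0.985, Sftpb at 0.979 and Abca3, the lamellar body lipid transporter, at 0.982.

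Sprr1a and Cd74 led the higher side among genes of at least 50 CPM. Sprr1a (chromosome 3, 92483952 to 92485895, minus strand) stood at 81.7 CPM in members and 46.5 CPM in depth-matched cells, a ratio of 1.76 (1.60 to 1.93), and at 1.57 within classes and 1.58 with the sex-linked kind matched. It was found in 22.5% of members and 20.5% of matched cells, 1 member held 16.2% of its UMIs, and without that cell the ratio was 1.48. Cbr3 stood at 62.3 and 43.2 CPM (1.44, 1.29 to 1.60), and at 1.63 and 1.58 in the other comparisons. Cbr3 was found in 29.3% of members and 27.1% of depth-matched cells. Its top member held 9.72% of its UMIs, and without that cell the ratio to depth-matched cells was 1.30. Sprr1a and Cbr3 both lead the antioxidant cluster, and when cells were matched within clusters Sprr1a stood at 1.41 and Cbr3 at 1.36.

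The other higher genes named by the same rule had smaller ratios. Hbegf, a ligand of the epidermal growth factor receptor, stood at 388 CPM in members and 288 CPM in matched cells, a ratio of 1.35 (1.29 to 1.40), and at 1.26 with class and sex-linked kind matched. It was found in 88.7% of members and 82.6% of matched cells. Sfn, the epithelial 14-3-3 protein, stood at 284 and 212 CPM (1.34, 1.28 to 1.41), and then at 1.20. Both were higher in Y-linked than in Xist cells without a Cdh16 UMI, by ratios of 1.35 and 1.39. None of the genes in this paragraph is past the 1.5-fold. Pgk1, a glycolytic enzyme encoded on the X chromosome, stood at 216 and 164 CPM (1.32, then 1.26), Slit2, a secreted guidance protein, at 106 and 82.7 CPM (1.28, then 1.27), and Ttc39c at 74.1 and 50.2 CPM (1.48, then 1.39). Frat2, an activator of Wnt signalling, stood at 138 and 98.6 CPM (1.40, then 1.26), and was 1.56 times higher in Y-linked than in Xist cells without a Cdh16 UMI.

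**Figure D5:**
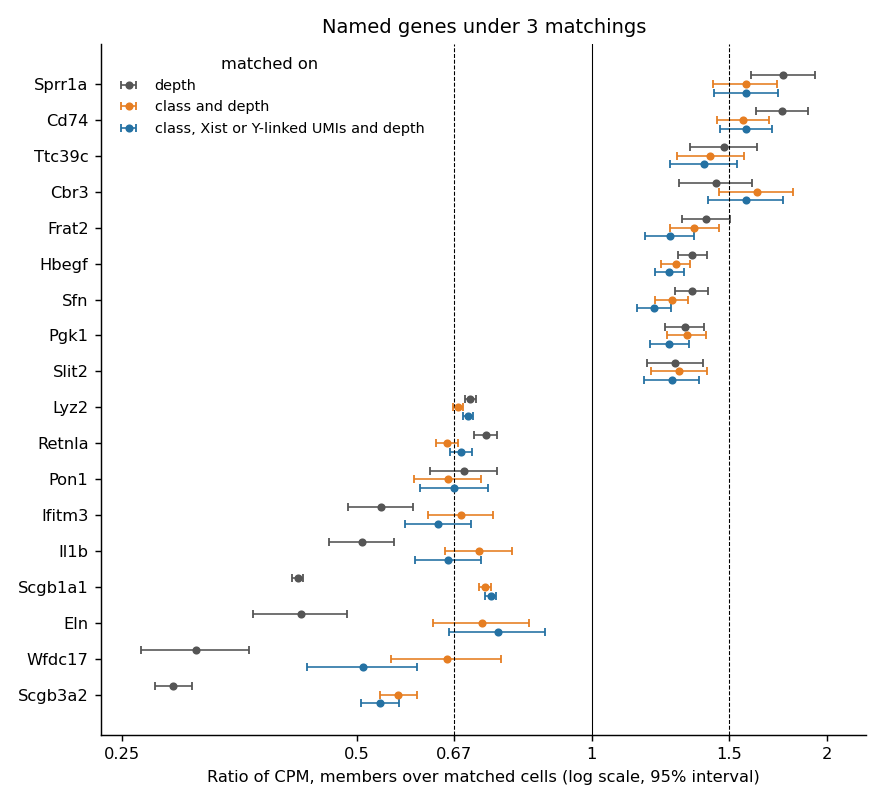
Ratio of CPM, members over matched cells (log axis, 95% conditional binomial interval), for 18 named genes with cells matched on depth, on class and depth, or on class, kind of sex-linked UMIs and depth; the lines mark equality and a 1.5-fold difference. Scgb3a2, Scgb1a1 and Eln move towards 1 with class matching (Scgb3a2 from 0.29 to 0.57), while Lyz2, Retnla and Pon1 stay between 0.65 and 0.73.

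Most of the other genes past the fold on the higher side were low, between 10 and 60 CPM, and several rested on 1 cell; those named next were picked after their values were seen. Of the 28, 3 were Y-linked (Uty, Eif2s3y and Ddx3y), with ratios of 1.58 to 1.74 that dropped to 1.10 to 1.13 once the sex-linked kind was matched. In 5 of the 28 a single member held over 30% of the UMIs. Piezo2, a mechanically gated channel, was such a case: 1 member held 53 of 70 UMIs, and without it the ratio went from 1.86 to 0.455. Without each gene's top member, 14 of the 28 remained past the fold, 11 of them not Y-linked. Several of these, such as Dlg2 (14.2 and 8.58 CPM), reached the 10 CPM in the members' sum only, so nothing is read from that count.

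Col15a1 and Col18a1, collagens of basement membranes, were among the genes still past the fold without their top member. Col15a1, the collagen XV chain, reached the 10 CPM in the members' sum only, which favours its place there. It was found in 18.3% of members and 9.94% of depth-matched cells, and stood at 13.5 and 6.24 CPM, a ratio of 2.17 (1.70 to 2.77). It stood at 2.16 within classes and 2.04 with the sex-linked kind matched, and at 2.03 without its top member. Col18a1, the collagen XVIII chain that carries endostatin, was found in 31.5% and 21.3% of cells and stood at 31.4 and 15.9 CPM, a ratio of 1.97 (1.68 to 2.29), with 1.95 within classes, 2.07 with the sex-linked kind matched and 1.77 without its top member. In Y-linked over Xist cells without a Cdh16 UMI the ratios were 1.65 for Col15a1 and 1.09 for Col18a1. Neither gene is on the list of basement membrane genes. Of that list, 0 of 20 measured were past the fold in either direction, with a highest ratio of 1.22 and a median log2 ratio of 0.02.

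MHC class II genes present antigen. Of 6 measured, 5 were past the fold upwards, against 0.332% of all measured genes, but 4 of the 5 (H2-Eb1, H2-Aa, H2-Ab1 and H2-DMb1) reached the 10 CPM in the members' sum only, so the count is no support for the list. Cd74, the invariant chain, stood at 126 CPM in members and 71.9 CPM in matched cells (1.76, 1.63 to 1.89), and H2-Eb1 at 20.7 and 7.61 CPM (2.72). A single member, in the small unnamed cluster led by H2-Eb1, held 18.8% of the members' class II UMIs. Without it H2-Ab1 stood at a ratio of 1.04, H2-Eb1 at 1.32, H2-Aa at 1.53, H2-DMb1 at 1.69 and Cd74 at 1.58. Without the 5 members with most class II UMIs the ratios were 0.805, 1.03, 1.19, 1.62 and 1.37 in the same order. The matched cells were left whole in both cases, so such ratios tend to fall. Among epithelial classes only, members and matched cells alike, they were 1.33, 1.73, 1.83, 1.74 and 1.60 in that order. H2-Ab1 and H2-DMb1 were then under 10 CPM in both sums. Cd74 was found in 50.5% of members and 42.8% of matched cells. Y-linked over Xist cells without a Cdh16 UMI had a ratio of 1.43 for Cd74 and 2.11 for H2-Eb1.

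Other cadherins and the genes of cell junctions were looked at next. Among 23 cadherins and relatives on the list, 4 were measured and 0 were past the fold upwards. Cdh5, the cadherin of endothelium (8.60 and 19.6 CPM, ratio 0.44), and Pcdh17 (5.74 and 15.9 CPM, 0.36) were past it downwards, as were 2.61% of all measured genes, but both reached the 10 CPM in the matched sum only and nothing is read from their count. Cdh1, the E-cadherin of all epithelia, stood at 245 CPM in both sums, and Cdh17, the closest relative, at 2.23 and 1.58 CPM, under the floor. Of 25 measured junction and polarity genes, 0 were past the fold, with ratios of 0.777 to 1.32 and a median log2 ratio of 0.00. Epcam, the gene of the sorted protein, stood at 360 and 331 CPM, Cldn18, the claudin of alveolar tight junctions, at 975 and 875 CPM, and Cldn4, a claudin raised in stretched or injured epithelium, at 40.2 and 30.5 CPM (1.32).

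Kidney tubule genes were either scarce or at like levels in members and matched cells. Of 22 genes listed for kidney and thyroid tubules, 4 were measured and 0 were past the fold. Pax8 and Pax2, transcription factors of kidney and thyroid development, had 0 UMIs in the members, as had Umod and Aqp2. A count of 0 allows up to 0.478 CPM in each case. Tmem213, on the list for its kidney expression, was high in both, at 912 and 781 CPM (1.17). Tfcp2l1, a transcription factor of kidney collecting ducts, was lower within classes, at 75.4 and 100.3 CPM (0.75, 0.683 to 0.826).

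The lists of lung cell states gave 0 genes past the fold in either direction. For the 22 AT1 identity genes the ratios lay between 0.843 and 1.08 (median log2 -0.05), with Hopx, the AT1 homeodomain protein, at 2171 and 2086 CPM and Rtkn2 at 257 and 305 CPM (0.84). For the 17 AT2 surfactant and lamellar body genes they lay between 0.699 (Lyz2) and 1.15 (median 0.04). Of the 21 measured distal tip genes, which mark the progenitors of the growing airway ends, 12 stood above 1 and 9 below (median 0.03), the highest being Mycn at 11.6 and 8.17 CPM (1.42, 1.10 to 1.82), which reached the floor in the members' sum only. Sox9, the tip transcription factor, stood at 31.1 and 24.4 CPM (1.27, 1.09 to 1.48). The 20 lung epithelial transcription factors had a median of -0.04, and Nkx2-1, the master regulator of lung epithelium, stood at 203 and 225 CPM (0.90).

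A small tilt ran through the transitional list, whose genes mark cells between AT2 and AT1 states: 14 of 14 had a ratio above 1 and 0 were past the fold, with a median log2 ratio of 0.18 against -0.04 over all genes. The keratins Krt8 and Krt19 stood at 860 and 735 CPM (1.17) and at 842 and 728 CPM (1.16), and Fosl1 at 22.5 and 17.1 CPM (1.31). Within classes 12 of 14 lay above 1 (median 0.16), and with the sex-linked kind matched 12 of 14 (median 0.11). Hypoxia and glycolysis genes tilted the same way, 13 of 19 above 1 with a median of 0.15, which was 0.16 within classes and 0.12 with the sex-linked kind matched. Ldha, lactate dehydrogenase, stood at 587 and 497 CPM (1.18) and Pdk1, which diverts pyruvate from the mitochondrion, at 41.3 and 31.7 CPM. Of 11 measured antioxidant genes, 9 lay above 1 (median 0.08). Within classes 10 of 11 did (median 0.12), with Cbr3 past the fold at 1.63, as were 0.325% of all genes measured there. Sterol synthesis genes leaned the other way, 11 of 12 below 1 with a median of -0.14, among them Cyp51 at 11.8 and 17.1 CPM (0.69, 0.538 to 0.874), and 0 were past the fold. For the other lists of signalling genes, 0 of 10 Notch, 0 of 17 fibroblast and epidermal growth factor and 0 of 17 BMP and TGF-beta genes were past the fold. Of 13 Wnt genes 1 was lower, the ligand Wnt3a (7.33 and 11.1 CPM, 0.66, over the floor in the matched sum only). Of 19 YAP and TAZ targets 1 was lower, Crim1 (21.2 and 34.5 CPM, 0.61). Of all measured genes 2.61% were lower, and nothing is read from these counts.

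The imprinted and growth list held 3 genes past the fold downwards of 18 measured, against 2.61% of all measured genes. H19 and Mest reached the 10 CPM in the matched sum only, so nothing is read from that count. The 3 were H19 (4.46 and 19.2 CPM, 0.23), Mest (5.74 and 12.2 CPM, 0.47) and Igf2 (10.7 and 16.2 CPM, 0.66), which are fetal growth genes of mesenchyme. Within classes H19 stood at 0.36, Mest at 0.56 and Igf2 at 0.78. Dlk1, an imprinted Notch ligand homologue abundant in these AT2-like cells, stood at 1818 and 1631 CPM (1.11), then at 1.03 within classes.

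At P10 the same rule gave 123 of 14086 cells (0.873%), and 110 of 8700 measured genes were higher (1.26%) and 405 lower (4.66%) against depth-matched cells, on sums of 2465248 and 24601840 UMIs. The values stand side by side without a test. The P10 members were 53.7% cells with Xist UMIs only and 3.25% with Y-linked UMIs only, against 8.04% and 49.8% at E18.5. Matching at P10 was on depth only, and the part of the sex-linked kind in the differences between time points was not tested. Sprr1a stood at 58.0 and 21.7 CPM at P10 (2.68, against 1.76 at E18.5) and Cd74 at 1818 and 1424 CPM (1.28, against 1.76). Clu, clusterin, picked after its values were seen, was found at 88.8 and 61.6 CPM at P10 (1.44). At E18.5 it stood at 53.5 and 34.9 CPM (1.54, and 1.45 without its top member). Hbegf stood at a ratio of 0.94 at P10, Ttc39c at 0.72, Lyz2 at 1.04 and Col18a1 at 0.88, each on the other side of 1 from its value at E18.5. Scgb3a2 and Scgb1a1 stood at 0.069 and 0.16. Of the lists that tilted at E18.5, 7 of 13 transitional genes lay above 1 at P10 (median log2 ratio 0.06) and 8 of 18 hypoxia and glycolysis genes (-0.02). So did 7 of 12 antioxidant (0.02) and 7 of 16 sterol synthesis genes (-0.03), against a median of -0.01 over all measured genes.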

How the data were processed

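The analysis started from the deposited E18.5 and P10 matrices of UMI counts, whole numbers with no normalization; per the file headers the authors made them with Cell Ranger 7.0.1. The submitters' processing notes name the build mm10 and Seurat 4.0.0, whose use they do not describe. The annotation and the treatment of intronic reads are not given in the sources used here. Each matrix lists 32285 genes. The labels name a 3' v2 kit, and they call the P10 tissue embryonic.

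Cells were kept and members chosen as stated in the report. The members, marker lists and gene lists were chosen with earlier results of these data known. The E18.5 cells were clustered without Cdh16 (scanpy 1.11.5, Leiden at resolution 1), which gave 25 clusters. A cluster was named from markers raised at least 3 times over the 10th percentile of clusters in at least 25% of its cells, with 3 or more markers required, and that rule was set after clusters had been seen. No doublet caller was run, so doublets remain.

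For each member, up to 10 cells without a Cdh16 UMI were drawn by nearest total UMIs without replacement, with a fixed seed, over the library, within the class, or within the class and the kind of sex-linked UMIs. The depth match had a median gap of 0.0917% and a largest gap of 61.3%, and the class match 0.494% and 74.1%. Matching on class and sex-linked kind gave 3046 cells, with 9 members short of 10. Its depth control was looser, with a median gap of 2.72%, a 95th percentile of 51.3% and a largest gap of 219%. Counts were summed and scaled to CPM. A gene counted as measured where either sum reached 10 CPM, and as past the fold where the ratio was at least 1.5 or its inverse. The text names genes by a rule: against depth-matched cells the 15 most extreme each way, and against class-matched cells the 10, where both sums averaged 50 CPM or more, without Cdh16, mitochondrial, ribosomal, haemoglobin and sex-linked marker genes and unnamed gene models, and members of the lists. A subset of these is printed. The ratio code was tested on simulated data.

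Alternatives were another seed, 5 matched cells, the mean of CPM per cell, division by the median ratio, a floor of 50 CPM, a fold of 2, a stricter filter (1000 genes, 2000 UMIs, 10% mitochondrial), no filter, leaving out the deepest 5% of cells, thinning to 3000 UMIs, members with at least 2 Cdh16 UMIs, epithelial classes only, and Leiden resolutions of 0.5 and 2. Matching within clusters, matching on sex-linked UMIs and leaving out a gene's top member were added after seeing the data. Top members were left out of the members' sum only, with the matched cells unchanged. Gene positions come from GENCODE vM21. Computations used Python 3.11.15, numpy 2.4.6, scipy 1.17.1, pandas 2.3.3, leidenalg 0.10.2 and matplotlib 3.10.9.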

Additional observations from a re-analysis of the deposited data

Results flagged for a closer look

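The level of Cdh16 in cells with Y-linked and no Xist UMIs, over that in cells with Xist and no Y-linked UMIs, was 8.27 at E18.5 and 0.170 at P10. It was singled out because the 2 time points lie on opposite sides of 1. The difference between the time points was not tested, since each is 1 library, and sex and animal cannot be told apart in either.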

How the results depend on the processing

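No paired analysis was possible because each time point is 1 library and its cells are not replicates. Depth limits every value, since members were defined by 1 UMI in 277 of 311 cases. Counts are of genes higher and lower than depth-matched cells (28 and 220 as reported), then than class-matched cells (27 and 50). Averaging CPM per cell gave 51 and 405, then 57 and 82. A floor of 50 CPM gave 5 and 30, then 5 and 5, and at P10 5 and 47 (110 and 405 as reported). A fold of 2 gave 4 and 53, then 2 and 8, and at P10 13 and 175. Without the deepest 5% of cells 51 were higher, then 58 and 87. Thinning to 3000 UMIs, which leaves few counts a gene, gave 280 and 923, then 344 and 588, and the 34 members with at least 2 Cdh16 UMIs gave 476 and 1100, then 467 and 881. Among epithelial classes only, the ratio to depth-matched cells lay above 1 for Wfdc17 (1.11), Fabp4 (1.27), Eln (1.02), Ccl9 (1.04), Lgals1 (1.21), Ccl6 (1.09) and Mgp (1.16), all lower as reported. With at least 2 Cdh16 UMIs Tuba1a stood at 1.12 and, within classes, Cbr3 at 0.980. The share of cells with a Cdh16 UMI was 0.701% after thinning. Of members, AT1-like cells were 18.3% and transitional-like cells 0% at Leiden resolution 0.5. At resolution 2, AT1-like cells were 12.9%, AT2-like 34.4%, mixed 0%, transitional-like 5.14% and unnamed 34.1%. The stricter filter gave AT1-like 1.62%, AT2-like 33.3%, mixed 0% and unnamed 39.5%. Thinning gave AT1-like 16.0%, mixed 22.7%, transitional-like 21.3% and unnamed 6.67%. With at least 2 UMIs, AT1-like cells were 2.94%, transitional-like 20.6% and non-epithelial 5.88%. Beyond the counting involved in thinning, floors and smaller groups, the cause was not tested. Another seed moved no count by over 1.5 times and no named ratio beyond its interval.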
